A study of Mus musculus with 672 samples.

Results

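All-lymphoid progenitors (ALPs) lacking Mbd3 were taken from the bone marrow of 2 mice and examined as single cells. The members were the 168 cells sorted as null ALPs, 84 per mouse, that passed 4 limits. A cell needed at least 50000 reads on nuclear genes, at least 1000 nuclear genes with a read, at most 20% mitochondrial reads and at most 50% reads on the added spike-in RNAs. The limits kept 121 null ALPs, 79 of mouse 18217 and 42 of mouse 18219, out of 561 cells kept of 672 in the whole series. The null mice were Mbd3 del/del and the control mice, used here only for the check of the deleted gene and the reference values named as such, were Mbd3 flox/flox. All 4 mice were 7 weeks old and of a mixed C57BL6/129Ola background. No source used here names the recombinase that deleted Mbd3 or the cells in which it acted. Cells were sorted from femurs and tibiae; all gates took lineage-negative cells that carried Sca-1 and c-Kit, were high for Flt3 and lacked B220. ALPs were IL-7Ra+ and Ly6D-, lymphoid-primed multipotent progenitors (LMPPs) of the same mice were IL-7Ra-, and B-biased lymphoid progenitors (BLPs) were IL-7Ra+ and Ly6D+. The 92 kept null LMPPs and 71 kept null BLPs served as neighbours for comparison.

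Mbd3 is a subunit of NuRD, a complex that joins nucleosome remodelling to histone deacetylation and tunes the transcription of lineage genes. ALPs are early lymphoid progenitors that can still give B, T, natural killer and dendritic cells. In the B lineage, signals through the IL-7 receptor and the E protein E2A turn on Ebf1, and Ebf1 with Foxo1 turns on Pax5, the factor that commits cells to the B fate. Single progenitors are known for holding low levels of transcripts of several lineages at once, which is called multilineage priming.

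The cells were sequenced by a full-length protocol without molecular identifiers, so values are reads, not molecules. Kept null ALPs of mouse 18217 had a median of 1079924 nuclear reads (205035 to 2850064) and those of mouse 18219 had 1285444 (70877 to 3764235). Mouse 18219 lost 42 of its 84 null ALPs, all with under 50000 reads, while mouse 18217 lost 5, and each result is therefore given for each mouse. A transcript was scored as detected when at least 1 of its reads remained after every cell was thinned at random to 50000 nuclear reads. Shares carry exact Clopper-Pearson intervals at the 95% level that cover counting error only. The 2 mice are the replicates, and the order of shares across genes is not an order of levels, because longer and more efficiently captured transcripts give more reads.

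The deleted gene served as the check of the labels. Mbd3 stood at 3.07 and 0.375 CPM (reads scaled to the library total) in the summed null ALPs of mice 18217 and 18219, against 106 and 109 CPM in control ALPs. After thinning, an Mbd3 read was found in 2 of 79 and 1 of 42 null ALPs. At full depth at least 1 Mbd3 read fell in 39.2% and 33.3% of null ALPs, but at least 10 reads fell in 2 and 0 cells, and a single cell with 189 reads held 62.4% of the Mbd3 reads of mouse 18217. The library labelled null LMPP of mouse 18219 stood at 26.3 CPM, against 0.201 CPM in that of mouse 18217. In mouse 18219, 4.26% of null LMPPs held an Mbd3 read after thinning, against 38.3% and 55.3% of control LMPPs. Where in the gene these reads lie was not analysed here. Whether they are background of the measure was not tested. A count at a threshold of 10 reads at full depth stands beside the shares that turn on few reads.

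The cells were described with 5 markers. Il7r, the IL-7 receptor alpha chain, was read in 76 of 79 cells of mouse 18217 (96.2%, interval 89.3 to 99.2%) and 40 of 42 cells of mouse 18219 (95.2%, 83.8 to 99.4%), against 24.4% and 17.0% of null LMPPs. The gates select on its protein, so this difference is set by the sort and does not check identity. Dntt, the terminal transferase that adds bases at antigen receptor joints, was read in 79 of 79 and 42 of 42 cells, but also in 97.8% and 97.9% of null LMPPs, so its share does not set ALPs apart. Its level per cell ran from 535 over a median of 7383 to 19358 CPM in mouse 18217 and from 491 over 7811 to 22808 CPM in mouse 18219. Ebf1 was read in 56 of 79 (70.9%, 59.6 to 80.6%) and 31 of 42 cells (73.8%, 58.0 to 86.1%). Rag1, a subunit of the recombinase that cuts antigen receptor genes, was read in 60 (75.9%, 65.0 to 84.9%) and 28 cells (66.7%, 50.5 to 80.4%). Cd79a, a signalling chain of the B cell receptor, was read in 31 (39.2%, 28.4 to 50.9%) and 25 cells (59.5%, 43.3 to 74.4%). Il7r and Dntt were thus read together in 76 and 40 cells, whereas the 5 markers together were read in 24 and 20 cells. Il7r was read in nearly all null ALPs, and Ebf1, Rag1 and Cd79a in part of them. In null BLPs, Ebf1 was read in 66.7% and 65.7% of cells, Rag1 in 61.1% and 82.9% and Cd79a in 75.0% and 68.6%. The 5 markers together were read in 41.7% and 42.9% of null BLPs and in 0% of null LMPPs of both mice. These markers thus do not set null ALPs apart from null BLPs.

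Among the other genes of the sorting gate, Flt3 was read in 79 and 42 cells, Ptprc, which encodes CD45, in 98.7% and 92.9%, Kit in 72.2% and 59.5%, and Ly6a, which encodes Sca-1, in 60.8% and 52.4%. Ly6d, whose protein was absent from the sorted surface, was nevertheless read in 32 of 79 and 18 of 42 null ALPs, and at 10 or more full-depth reads in 36 and 15 cells. Its level per cell had medians of 3.23 and 5.14 CPM and maxima of 745 and 1672 CPM, and 1 cell of mouse 18219 held 56.9% of all Ly6d reads of that library. In null BLPs, sorted for the protein, Ly6d was read in 100% and 94.3% of cells. Markers of macrophages and stroma were near absent: 10 of 13 were at 0 in every null ALP after thinning (0 of 79 cells allows a share of up to 3.80% and 0 of 42 up to 7.14%, taking 3 cells as the limit that a count of 0 allows), C1qa, Adgre1, Cxcl12 and Col1a1 among them, and Pecam1 and Cd68 were read in 68.4% and 64.3% and in 26.6% and 31.0% of cells.

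**Figure D1:**
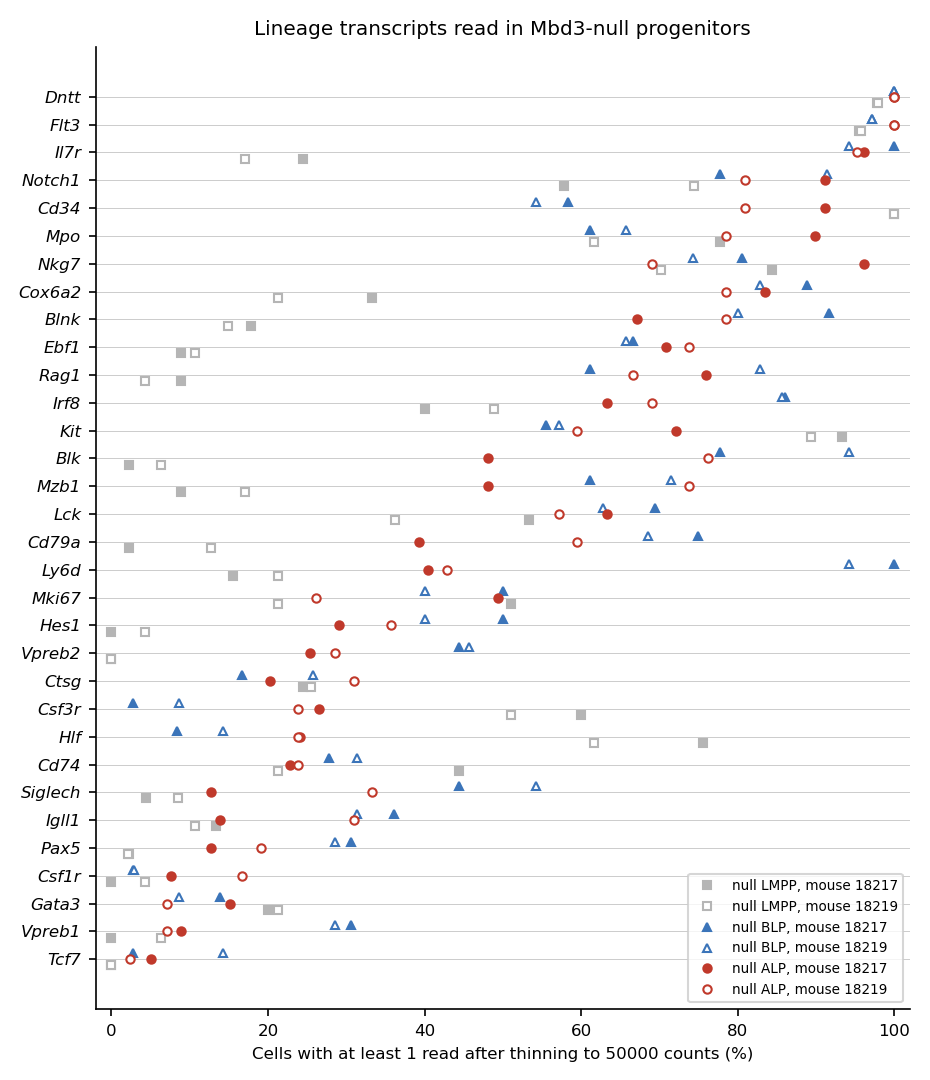
Each point is the share of cells of 1 mouse (x axis, percent) with at least 1 read of the gene on the y axis after thinning to 50000 reads, for null ALPs (circles), null LMPPs (squares) and null BLPs (triangles); filled symbols are mouse 18217 and open symbols mouse 18219. Ebf1 lies close to the null BLPs, Cd34 and Mpo lie at 78.6% or above, and Pax5 lies at 19.0% or below in null ALPs.

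The early B programme was present in parts rather than as a block. Of 20 B lineage regulators, 12 were read in at least 50% of null ALPs on the mean of the 2 mice, 5 in under 10%, and Spib in no cell. Regulators shared with other lymphoid and multipotent cells led the list, with Ikzf1 in 100% and 100% of cells, Myb in 97.5% and 92.9%, Bcl11a in 93.7% and 92.9%, Aff3 in 78.5% and 85.7%, Spi1 in 78.5% and 81.0%, and Sox4 in 70.9% and 73.8%. Foxo1, the partner of Ebf1 in the early B programme, was read in 40.5% and 38.1% of cells. Pax5 was read in 10 of 79 (12.7%, 6.24 to 22.0%) and 8 of 42 cells (19.0%, 8.60 to 34.1%), and its highest cells reached 1044 and 447 CPM while the median cell had 0 in both mice. One cell held 41.6% of the Pax5 reads of mouse 18217 and one 44.1% of those of mouse 18219. Pax5 reads thus came from few cells.

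Components of the pre-B and B cell receptors differed widely in how many cells held them. Of 18, 10 were read in at least 50% of null ALPs and Cd22 in none. Ighm transcripts were read in each of the 121 cells, Cd24a in 94.9% and 100%, Syk in 88.6% and 92.9%, Rhoh in 82.3% and 97.6% and Btk in 74.7% and 76.2%. These genes are not particular to null ALPs. In null LMPPs, Ighm was read in 95.6% and 93.6%, Cd24a in 88.9% and 87.2% and Syk in 68.9% and 59.6% of cells. Rhoh was read there in 86.7% and 68.1% and Btk in 62.2% and 59.6%. Blnk, the adaptor downstream of Syk, was read in 53 of 79 (67.1%, 55.6 to 77.3%) and 33 of 42 cells (78.6%, 63.2 to 89.7%), with levels from 0 over 50.9 to 3139 CPM and from 0.325 over 574 to 2018 CPM. Its share in null LMPPs was 17.8% and 14.9%. The surrogate light chain genes were read less: Vpreb2 in 25.3% and 28.6% of cells, Vpreb3 in 17.7% and 16.7%, Vpreb1 in 8.86% and 7.14%, and Igll1 in 13.9% and 31.0%. For Igll1 10 or more full-depth reads were found in only 3 and 4 cells, and for Vpreb1 in 2 and 4. Of 12 recombination genes, 5 were read in at least 50% of cells and none was at 0; beside Dntt and Rag1 these were Xrcc6 and Hmgb1, which act at DNA ends, and Rag2, the partner of Rag1, in 79.7% and 76.2% of cells. Of 12 mature B and plasma cell genes, 7 were read in under 10% of cells, and Ms4a1, Fcer2a, Prdm1 and Tnfrsf17 in none.

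The mice differed most in the middle of this series. Cd79a was read in 39.2% and 59.5% of cells of mice 18217 and 18219, Blk, a B lineage kinase, in 48.1% and 76.2%, and Mzb1, an endoplasmic reticulum protein of B cells, in 48.1% and 73.8%. For Blk the exact intervals of the mice (36.7 to 59.6% and 60.5 to 87.9%) did not overlap, and for Cd79a and Mzb1 they did. The mitotic genes Cdk1 and Mki67 had the lower shares in mouse 18219, with Cdk1 in 58.2% (46.6 to 69.2%) and 26.2% (13.9 to 42.0%) and Mki67 in 49.4% and 26.2% of cells, whereas at least 11 of 22 S phase genes were read in 63.3% and 66.7% of cells. With 1 library per mouse no test between mice exists, and the part that the loss of 42 cells of mouse 18219 had in these values was not tested.

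To describe cells rather than genes, 8 B lineage genes (Ebf1, Pax5, Cd79a, Cd79b, Blnk, Igll1, Vpreb1 and Vpreb3) were taken as a panel. Null ALPs had a median of 3 panel genes in both mice, with ranges of 0 to 7 and, in mouse 18219, up to 8, against medians of 1 in null LMPPs and 4 in null BLPs. At least 2 panel genes were read in 62 of 79 (78.5%) and 35 of 42 cells (83.3%), 80.9% ± 3.43 (SD, n = 2 mice), against 20.0% and 29.8% of null LMPPs and 88.9% and 88.6% of null BLPs. With 10 reads at full depth required for each gene, the mean was 74.7%. Without Cd79b, which was read in 53.2% and 71.4% of null ALPs and 57.8% and 57.4% of null LMPPs, the null ALP shares were 70.9% and 73.8%. At least 4 panel genes were read in 22 and 20 null ALPs, 27.8% and 47.6%, against 66.7% and 62.9% of null BLPs. In the same measure 66.2% and 47.5% of control ALPs had at least 2 panel genes.

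**Figure D2:**
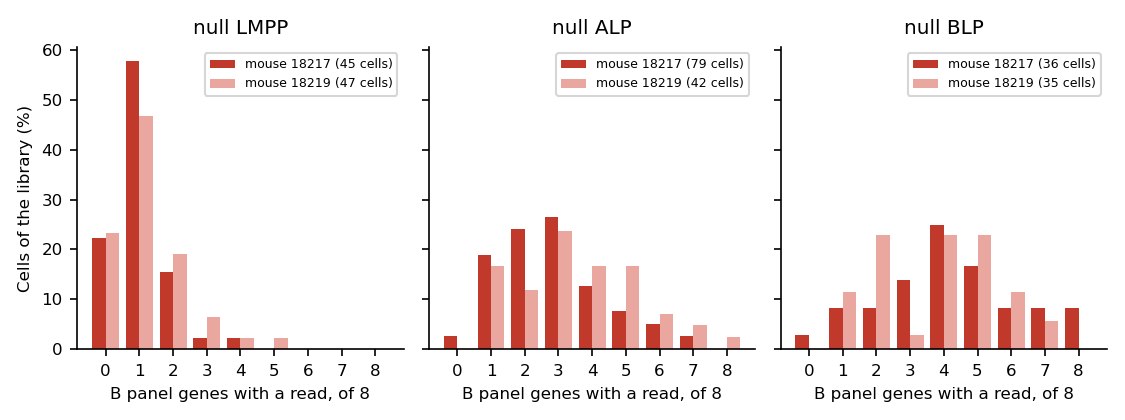
Bars give the percent of cells of each null library (y axis) by the number of the 8 B panel genes with a read (x axis), with dark bars for mouse 18217 and light bars for mouse 18219. The null LMPPs peak at 1 gene, the null BLPs centre on 4, and the null ALPs, with a median of 3, spread over 0 to 8.

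Ebf1 was read together with Rag1, and with Cd79a, in more cells than the product of their shares gives, but not with every B panel gene. Ebf1 spans 44617317 to 45008091 on chromosome 11 and Rag1 spans 101638282 to 101649501 on chromosome 2 of GRCm38, where its first exon is shared with B230118H07Rik on the same strand. Both were read in 50 cells of mouse 18217 and 25 of mouse 18219, where the product of the 2 shares gives 42.5 and 20.7 cells. Rag1 was read in 89.3% and 80.6% of cells with Ebf1 and in 43.5% and 27.3% of cells without it. Cd79a was read in 44.6% and 77.4% of cells with Ebf1 and in 26.1% and 9.09% of those without. Blnk was read in 71.4% and 87.1% of cells with Ebf1 and in 56.5% and 54.5% of those without. For the surrogate light chain genes no such excess was seen at 1 thinned read. Igll1 was read with Ebf1 in 8 and 10 cells, where the product of shares gives 7.80 and 9.60, and Vpreb1 in 5 and 2, where it gives 4.96 and 2.21. At 10 full-depth reads of each gene, Igll1 stood with Ebf1 in 3 and 4 cells and without it in 0 and 0. The product there gives 1.90 and 2.95. Vpreb1 stood with Ebf1 in 2 and 2 cells at that threshold, where the product gives 1.27 and 2.95. Most cells with Pax5 also held the other early B genes: of the 10 and 8 cells with Pax5, 9 and 8 had Ebf1, 10 and 7 had Rag1, 9 and 8 had Blnk, and 8 and 7 had Cd79a. Cells with Ebf1 but without Pax5 numbered 47 and 23, and cells with Pax5 but without Ebf1 numbered 1 and 0. Ebf1, Rag1, Cd79a and Blnk were all read in 20 and 21 cells (25.3% and 50.0%), and none of the 4 in 6 and 3 cells. These overlaps are descriptions of cells that share a library and carry no test.

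The rank correlation of each gene with Ebf1 was taken across the cells of each mouse on its own, over 6382 genes read in at least 20% of the cells of both. Genes were ranked in mouse 18217 and then read in mouse 18219. Rag1 ranked first, with rho = 0.49 over 79 cells, and reached 0.57 over 42 cells of mouse 18219, where it ranked 3. The next genes included Atp1b3, a sodium pump subunit (0.45 and 0.35), Pde4b, a cyclic AMP phosphodiesterase (0.42 and 0.39), Mzb1 (0.42 and 0.41) and Gimap6, of a family of lymphocyte GTPases (0.40 and 0.47). The other 7 of the first 12, Ifi203, Sigirr, Sdc4, Gramd1a, Rai1, Ssh2 and N4bp2, had 0.38 to 0.45 in mouse 18217 and 0.15 to 0.31 in mouse 18219. The first 12 kept a positive sign in mouse 18219 with a median of 0.29, where 43.8% of all genes were positive. Cd79a had 0.38 and 0.58 and Blk 0.20 and 0.54. At the other end stood Psmc3, Csrp1, Odc1, Haus4, Orc6, Nhp2, Cct8 and Hat1, genes of the proteasome, the cytoskeleton, polyamine synthesis, DNA replication and protein folding among them, with -0.50 to -0.44 in mouse 18217 and -0.28 to -0.04 in mouse 18219. Their median in mouse 18219 was -0.14, where all genes had a median of -0.03 and a 5% quantile of -0.30. Their own correlations with full depth were 0.12 to 0.40 in mouse 18217 and 0.17 to 0.57 in mouse 18219. Those of the first 12 genes were -0.31 to 0.01 in mouse 18217 and -0.28 to 0.01 in mouse 18219. The part of depth at either end was not tested. Of the genes on the lists, Cd34 had -0.40 and -0.27 and Mcm5, a replication helicase subunit, -0.37 and -0.45. The cells of a mouse share their animal and gate, and the correlation of Ebf1 itself with full depth was -0.24 and 0.01.

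**Figure D3:**
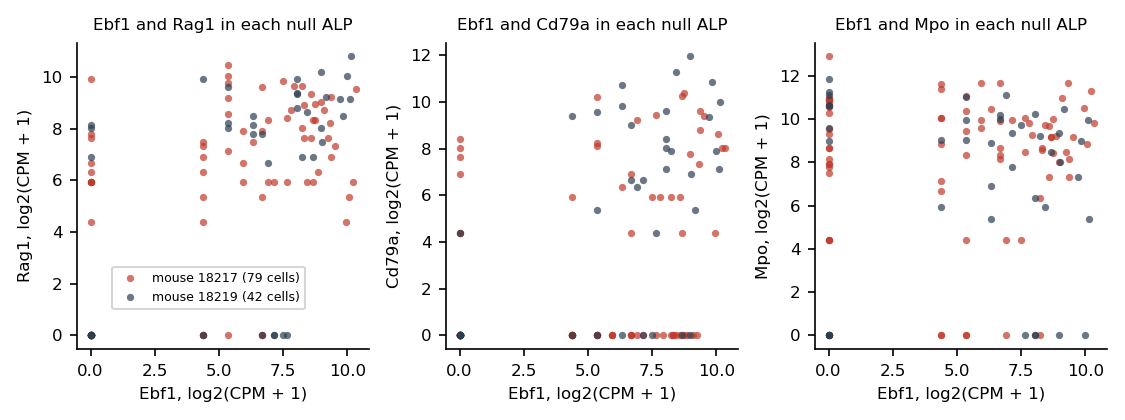
Each point is 1 null ALP, placed by its thinned Ebf1 level (x axis) and its Rag1, Cd79a or Mpo level (y axis), all as log2(CPM + 1), where points on an axis at 0 had no read. Cells without Ebf1 are mostly at 0 for Cd79a. So are 31 of the 56 cells with Ebf1 in mouse 18217, against 7 of 31 in mouse 18219. Mpo covers the same range with and without Ebf1.

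Rag1 and Cd79a were read with Ebf1 in more cells than the product of shares gives, and Igll1 was near that product at 1 thinned read only. The sequence before their starts is shown, 5′ to 3′ on the gene's strand, from RefSeq on GRCm38.p6 and outside annotated exons. Capitals mark CCCNNGGG, the core of the Ebf1 motif, CAGCTG, an E-box bound by E proteins, and ATTTGCAT, the octamer, each searched on both strands. The Rag1 window lies at chr2:101649533-101649782 on the minus strand, the Cd79a window at chr7:24897247-24897380 on the plus strand and the Igll1 window at chr16:16863986-16864235 on the minus strand.
Rag1: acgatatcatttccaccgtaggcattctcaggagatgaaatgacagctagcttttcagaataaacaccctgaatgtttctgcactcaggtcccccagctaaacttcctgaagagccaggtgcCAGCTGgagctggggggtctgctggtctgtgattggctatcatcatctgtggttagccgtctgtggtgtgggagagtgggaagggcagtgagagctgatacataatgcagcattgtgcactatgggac
Cd79a: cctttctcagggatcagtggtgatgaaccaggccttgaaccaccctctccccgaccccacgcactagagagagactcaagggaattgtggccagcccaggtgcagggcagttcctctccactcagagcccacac
Igll1: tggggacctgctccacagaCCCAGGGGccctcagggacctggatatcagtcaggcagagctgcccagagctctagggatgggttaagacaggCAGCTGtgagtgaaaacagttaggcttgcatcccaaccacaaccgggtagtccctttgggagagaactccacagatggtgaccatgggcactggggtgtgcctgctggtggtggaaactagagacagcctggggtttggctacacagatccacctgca
Rag1 held 1 CAGCTG, Igll1 held 1 CCCNNGGG and 1 CAGCTG, and the 134 bases shown for Cd79a held no match to these letters. Among 32851 windows of 250 bases before RefSeq starts, 11.8% held CCCNNGGG, 13.0% CAGCTG and 1.60% ATTTGCAT. Of 16 windows matched for 10 of the 12 genes most correlated with Ebf1, 5 held CCCNNGGG, 3 CAGCTG and 0 ATTTGCAT. Of 8 windows matched for 7 of the 8 B panel genes, 1 held CCCNNGGG, 1 CAGCTG and 2 ATTTGCAT. The bases shown for Cd79a hold ctcaaggg, which differs from CCCNNGGG by 1 letter. A match is a description and not a site, and the lack of an exact match does not show that a site is absent.

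Transcripts of other lineages were read in the same cells as the B genes. Mpo, the myeloperoxidase of granulocytes and their progenitors, was read in 71 of 79 (89.9%) and 33 of 42 null ALPs (78.6%), with levels from 2.19 over 450 to 6811 CPM and from 0 over 434 to 3867 CPM. It was read in 89.3% and 83.9% of cells with Ebf1 and in 91.3% and 63.6% of cells without, so that 50 and 26 cells held both transcripts. Cox6a2, a cytochrome oxidase subunit typical of plasmacytoid dendritic cells, was read in 83.5% and 78.6% of null ALPs, Nkg7, a granule protein of cytotoxic cells, in 96.2% and 69.0%, and Lck, the kinase of T cell receptor signalling, in 63.3% and 57.1%. Ebf1, Mpo and Cox6a2 were read together in 41 and 18 cells, and Ebf1, Mpo, Cox6a2, Lck and Nkg7 in 26 and 10 cells. With 10 reads at full depth required, those last counts were 24 and 11. The set of 3 genes was read in 51.9% and 42.9% of null ALPs and in 41.7% and 42.9% of null BLPs. The set of 5 genes was read in 32.9% and 23.8% of null ALPs and in 22.2% and 28.6% of null BLPs. In null LMPPs both sets stood at 2.22% and 0%.

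Panels of 8 genes for each other lineage were scored like the B panel. At least 2 dendritic genes were read in 58.2% and 52.4% of null ALPs, at least 2 myeloid genes in 49.4% and 47.6%, at least 2 natural killer and innate lymphoid genes in 22.8% and 26.2%, at least 2 T lineage genes in 16.5% and 9.52%, and at least 2 erythroid and megakaryocyte genes in 1 and 2 cells. The B panel and at least 1 other lineage panel were read together in 53 of 79 (67.1%) and 30 of 42 cells (71.4%), 69.3% ± 3.07 (SD, n = 2 mice). The B panel alone was read in 9 and 5 cells, another panel alone in 17 and 5, and no panel in 0 and 2. In null BLPs the joint share was 72.2% and 77.1%. This overlap rested largely on widely read genes of the other panels. Without Mpo, Cox6a2, Nkg7 and Lck, an alternative chosen after seeing the data, the joint share was 24.1% and 31.0%, a mean of 27.5%. The B panel was left whole there, with Cd79b in it. Requiring 3 genes of a panel left a mean of 16.4%. For reference, at least 2 dendritic genes were read in 67.6% and 62.5% of control ALPs and at least 2 myeloid genes in 25.7% and 17.5%. The natural killer and innate lymphoid panel stood there at 35.1% and 55.0% and the T panel at 21.6% and 25.0%. The erythroid and megakaryocyte panel stood at 4.05% and 2.50%. The genotypes were not compared by a test.

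**Figure D4:**
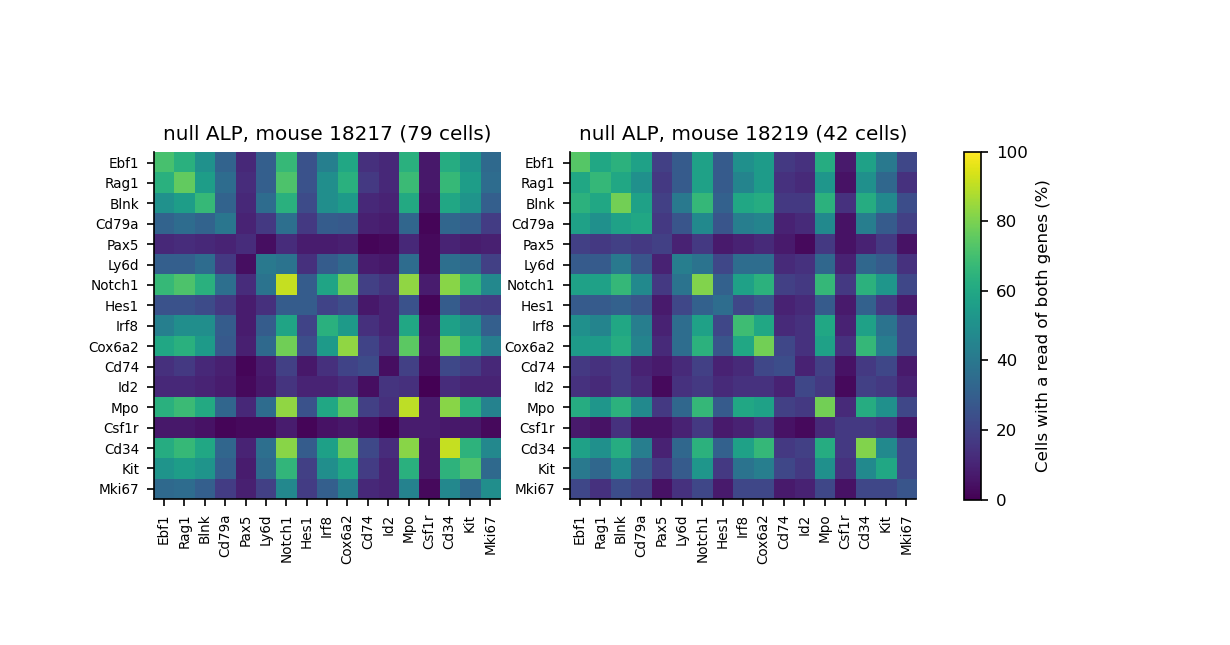
Each square gives the percent of null ALPs of 1 mouse (79 cells left, 42 cells right) with a read of both the row and the column gene, and the diagonal gives each gene's own share. Notch1, Mpo, Cox6a2 and Cd34 form bright rows across the B genes, while Pax5, Csf1r, Id2 and Cd74 form dark ones.

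Behind the widely read genes, later genes of the other lineages were rare. Of 22 myeloid genes, Elane, Ms4a3, S100a8, S100a9 and Ngp, products of maturing granulocytes, were at 0 in every thinned null ALP, and Fcer1g (60.8% and 66.7%), Csf2ra (46.8% and 26.2%), Lyz2 (31.6% and 38.1%), Ctsg (20.3% and 31.0%) and Csf3r (26.6% and 23.8%) followed Mpo. Csf1r, the receptor of the monocyte line, was read in 6 and 7 cells. Of 24 T lineage and Notch genes, 14 were read in under 10% of cells and 5 in none (Cd3e, Cd3g, Ptcra, Cd2 and Themis). Cd27 was read in 98.7% and 97.6%, Notch1 in 91.1% and 81.0%, Lat in 77.2% and 78.6%, Runx3 in 53.2% and 57.1% and Cd247 in 38.0% and 47.6%. Hes1, a direct Notch target, was read in 23 of 79 (29.1%, 19.4 to 40.4%) and 15 of 42 cells (35.7%, 21.6 to 52.0%), and in 35.7% and 38.7% of the cells with Ebf1. Tcf7, the T lineage factor, was read in 4 and 1 cells, and none of these 5 had a Rag1 read. Gata3 was read in 12 and 3 cells, but at 10 reads in 5 and 2.

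Of 21 natural killer and innate lymphoid genes, 15 were read in under 10% of cells and 7 in none, the effector genes Gzma, Gzmb, Prf1 and Ncr1 among them, while Tox was read in 59.5% and 31.0% and Id2, an inhibitor of E proteins, in 15.2% and 21.4%. Of 20 dendritic genes, 6 were read in at least 50% of cells. Tcf4 led them in 78.5% and 92.9%, followed by Cox6a2, Runx2, Bst2 and Irf8 (63.3% and 69.0%), and Siglech, a surface receptor of plasmacytoid dendritic cells, was read in 10 and 14 cells. Of 20 erythroid and megakaryocyte genes, Klf1, Gata1, Car1 and Pf4 were at 0 in every null ALP, and Tfrc and Car2 were read in at least 50%. Of 23 stem and multipotent genes, 9 were read in at least 50% of null ALPs and 5 in under 10%. Cd48 was read in 88.6% and 88.1%, Cd34 in 91.1% and 81.0%, Msi2 in 83.5% and 76.2%, Lmo2 in 81.0% and 73.8%, Meis1 in 77.2% and 71.4% and Kit in 72.2% and 59.5%. The long-term stem cell markers Procr and Slamf1 were read in 0 and 1 cells in all, and Hlf in 24.1% and 23.8%.

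S phase genes, spike-in share and the number of genes read all followed the first axis of variation among null ALPs, and B transcripts followed it less closely. The first principal component, over the 1000 most variable genes of the 121 thinned cells, held 6.66% of the variance and the second 2.30%, so most variance lay outside both. Genes of DNA replication and its supply of nucleotides stood at its high end, among them Rrm1, Mcm5, Prim1, Rpa2, Hells, Gmnn and Tipin. Its low end was led by Rag1, Mzb1, Gimap4, Cd79a, Blnk, Ebf1, Trp53inp1 and Lax1. The score rose with the number of S phase genes read (rho = 0.85 over 79 cells and 0.90 over 42) and fell with the Ebf1 level (-0.40 and -0.40) and the number of B panel genes (-0.35 and -0.31). The number of B panel genes itself had rho of -0.19 and -0.24 with that of S phase genes. The component score also moved with the amount of RNA. Its rho was -0.74 and -0.83 against the spike-in share and 0.86 and 0.79 against the number of genes read after thinning. The part of RNA content in this axis was not tested. The scores of the mice overlapped, with medians of -0.11 and -8.81.

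**Figure D5:**
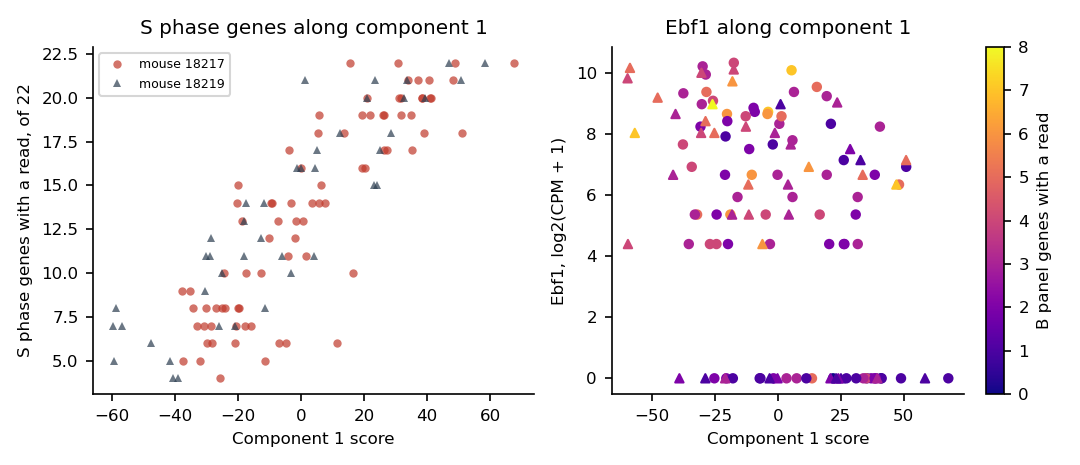
Left, the number of 22 S phase genes with a read (y axis) against the score on the first component (x axis) for each null ALP; right, the thinned Ebf1 level as log2(CPM + 1) on the same x axis, coloured by the number of B panel genes. S phase genes climb along the axis, and the cells with the highest Ebf1 levels lie mostly at negative scores in both mice.

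Counted by cells, at least 11 of 22 S phase genes were read in 50 of 79 and 28 of 42 null ALPs, and 8 and 9 cells lay within 1 gene of that limit, so it divides a range. Mzb1 was read in 34.0% and 67.9% of the cells above the limit and in 72.4% and 85.7% of those below. Ebf1 was read in 62.0% and 71.4% above and 86.2% and 78.6% below, and Cd79a in 36.0% and 53.6% above and 44.8% and 71.4% below. Cd34 ran the other way, in 98.0% and 89.3% above and 79.3% and 64.3% below. Spike-in shares had medians of 7.99% and 9.83% above and 12.0% and 18.5% below. Null ALPs with at least 200000 reads and at most 10% spike-in reads, 42 and 16 cells, had at least 2 B panel genes in 66.7% and 68.8%, and the remaining 37 and 26 cells in 91.9% and 92.3%. The limit of 200000 reads left out 0 and 1 cells, so this split is one by spike-in share. The number of B panel genes had rho of -0.30 and -0.09 with nuclear reads, and the part of RNA content in these shares was not tested. Of the 24 G2 and M phase genes, at least 12 were read in 17 and 6 cells.

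The second component had among its leading genes Gimap1, Slc25a11, Irf7, Trafd1, Sytl1, Selenop, Ltb and Tsc22d3 at one end and Rfc4, Hells, Slc3a2, Tyms, Eif4enif1, Dnmt1 and Mcm2 at the other. Among genes read in 20 to 80% of the cells of mouse 18217, the most variable beyond the trend with the mean was Fos, an immediate early factor, which also ranked 1 in mouse 18219. Its levels ran from 0.645 over a median of 264 to 4548 CPM and from 0.339 over 298 to 4988 CPM. Blnk ranked 6 and 2, Pqlc3 8 and 5, Gimap4 12 and 23, and the replication genes Rpa2, Tipin and Mcm5 3, 4 and 5 in mouse 18217 and 28, 50 and 58 in mouse 18219. Rtp4, an interferon-induced gene, ranked 10 and 86, and Oxct1, a mitochondrial enzyme, 11 and 1400. Tifa (2) and Cyc1 (9) were read in over 80% of cells of mouse 18219 and had no rank there. Of the first 100 genes in each mouse, 30 were shared.

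How alike the cells of 1 gate were did not separate the gates beyond the spread of the mice. The median Spearman correlation between pairs of cells of 1 mouse was 0.316 and 0.304 in null ALPs, 0.334 and 0.294 in null LMPPs and 0.308 and 0.296 in null BLPs. An exact permutation test of the mouse values (two-sided) gave p = 1 against null LMPPs and p = 0.667 against null BLPs, where 2 mice against 2 cannot go below 0.33.

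Summed per mouse and compared with null LMPPs by edgeR's quasi-likelihood test, 42 of 19890 genes passed a Benjamini-Hochberg adjusted p of 0.05 (0.211%), 31 higher in null ALPs (0.156%) and 11 lower (0.0553%). The gates select on the product of Il7r, so its difference is set by the sort. Ebf1 rose by 7.51 ± 0.32 (log2 fold change ± SE, adjusted p = 8.66e-05), from 1.05 and 1.12 CPM in null LMPPs to 164 and 231 CPM in null ALPs of mice 18217 and 18219. Rag1 rose from 0.775 and 0.952 to 187 and 259 CPM (adjusted p = 0.00172) and Il7r from 3.96 and 5.04 to 648 and 582 CPM (adjusted p = 0.000179). Colq, a collagen-tailed anchor of acetylcholinesterase, rose from 0.273 and 0.256 to 47.5 and 49.1 CPM (adjusted p = 8.89e-05). Pax5 (7.14 ± 0.90, adjusted p = 0.0207), Blnk (5.79 ± 0.58, 0.00693), Cox6a2 (3.97 ± 0.52, 0.0248) and Ly6d (4.62 ± 0.67, 0.0461) also rose. With the mouse as a block, 22 genes passed and these 4 did not (adjusted p = 0.0721, 0.0559, 0.0608 and 0.107). Cd79a, at 96.8 and 298 CPM against 1.09 and 6.14, had a change of 5.78 ± 1.33 with an adjusted p of 0.193.

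The genes lower in null ALPs than in null LMPPs included several known from stem and multipotent cells. Lmo2, a partner of stem cell factors, fell from 857 and 1025 to 185 and 228 CPM (adjusted p = 0.0045), and Ifitm1, of the interferon-induced membrane proteins, from 379 and 571 to 44.1 and 55.1 CPM (0.0108). Gas6, a ligand of TAM receptors, fell from 23.8 and 34.2 to 0.0608 and 0.0511 CPM (0.0038). Procr, Wfdc17, Car2, Hlf and Krt18 had log2 fold changes of -8.32, -3.97, -3.85, -3.06 and -2.75 (adjusted p = 0.0346, 0.0207, 0.0204, 0.0306 and 0.0413), and none of these 5 passed with the mouse as a block (0.106, 0.0871, 0.0568, 0.112 and 0.119). Of 20 B lineage regulators, 18 had positive and 2 negative changes, with a median of 1.13 where the median over all genes tested was 0.00, and 2 were called. Of 22 stem and multipotent genes tested, 18 had negative changes, the median was -1.39 and 3 were called lower. Without mouse 18217 or mouse 18219, when the lone null library of a gate was assumed to vary like the others, 0 genes passed, without either control mouse 7 did, and without the ALP library of mouse 18219 alone 15 did. Without mouse 18219, whose null LMPPs held Mbd3 reads, Ebf1 had a change of 7.30 (edgeR adjusted p = 0.212) and Lmo2 of -2.21 (0.223).

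Against null BLPs, 0 of 19890 genes passed by edgeR (0%), while 1275 of the 19890 had an unadjusted p under 0.05 and DESeq2 called 427. The edgeR fit had little power here for small differences. Simulated data held 50 altered genes for each size of effect. The fit found 0 at 2-fold, 16 at 4-fold, 44 at 16-fold and 48 at 64-fold. The lack of calls therefore does not show that null ALPs and null BLPs are alike. The surrogate light chain gene Igll1, the gate gene Ly6d and the dendritic gene Siglech were lower in the libraries of null ALPs, without passing the test. Igll1 stood at 1.94 and 5.08 CPM in null ALPs and 689 and 206 CPM in null BLPs (edgeR adjusted p = 0.649). Ly6d stood at 38.5 and 93.3 against 2803 and 1600 CPM (0.267), and Siglech at 23.3 and 48.3 against 417 and 364 CPM (0.678). Ebf1, at 164 and 231 against 296 and 310 CPM, had a change of -0.62 ± 0.24 (edgeR adjusted p = 0.757). The medians of the B lineage regulators and of the receptor components were -0.38 and -1.09, with 16 of 20 and 17 of 18 negative. That of the G2 and M phase genes was -1.27, with 24 of 24 negative, and that of all genes tested 0.00.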

How the data were processed

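Single bone marrow cells of 4 mice (2 null, 2 control) were sorted into plates and sequenced by the full-length protocol of Picelli and colleagues, per the labels' protocols. The authors deposited whole-number read counts per gene, made with GSNAP 2015-09-29 and HTSeq 0.5.3p3 on mm10, per the submitters' processing notes. No source used here gives the annotation release or strand setting; a gene's reads therefore cannot be separated from those of an overlapping or antisense partner. Entries that name no gene (spike-ins, unaligned, ambiguous or unassigned reads) held 56.8% of counts and stayed out of tests. No doublet caller was run on cells sorted 1 per well, and 0 pairs of kept cells had identical counts.

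The members, lists and tests were chosen with earlier results of these data known. Named genes were the ALP markers and gate genes, up to 6 members per list by mean share, the 12 most variable genes of mouse 18217, the 12 most and 8 least correlated with Ebf1, 8 genes at each end of 2 components, and up to 8 genes per direction of a gate comparison with non-overlapping mice and at least 20 CPM. Other list members named were chosen after their values were seen. Some genes that these rules name are not reported here. The ranked lists hold no predicted genes, pseudogenes, receptor segments or mitochondrial genes, and neither Y-linked genes nor Tsix or Xist.

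Kept cells were summed into 12 libraries of 50003971 to 130330116 counts, and CPM were computed with TMM-scaled sizes. edgeR 4.0.16 (R 4.3.3; filterByExpr, glmQLFit, glmQLFTest) was fitted over 6 groups with 6 residual degrees of freedom and Benjamini-Hochberg adjustment; SE is the change divided by the root of F. P-values measure the spread between these mice. Null LMPPs, ALPs and BLPs of 1 number come from 1 animal, so the mouse pairs them; deviations of libraries of 1 mouse correlated at 0.034 to 0.040. The fits and the correlation and variance functions were tested on simulated data. Python 3.11.15, scipy 1.17.1 and statsmodels 0.14.6 were used for cell statistics. DESeq2 1.42.0, other scalings, filters, depths and thresholds were alternatives.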

Additional observations from a re-analysis of the deposited data

How the results depend on the processing

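Counts of genes called moved most. For null ALPs against null LMPPs (42) DESeq2 called 912, no filter on low counts 172, cells thinned to equal counts 240, the null libraries alone 7, and the fit without the ALP library of mouse 18219, chosen after seeing the data, 15. With mouse as a replicate block 22 passed. Leaving out 1 mouse gave 0 to 7. For null ALPs against null BLPs (0) DESeq2 called 427, no filter 13 and thinned cells 6, and leaving out 1 mouse, or the replicate block, gave 0. RLE scaling and all cells kept gave 43 and 45 against null LMPPs, and 0 against null BLPs.

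The share with B panel transcripts (80.9%) was 74.7% at 10 reads, 100% at 1 read of full depth, 92.5% thinned to 200000 reads, 67.7% in the stricter cells, 98.7% for 1 gene and 62.9% for 3 genes, and 78.5% to 83.3% without 1 mouse. The share with the B panel and another (69.3%) was 59.9%, 100%, 90.1%, 65.3%, 98.7% and 16.4% in the same order, 27.5% without the 4 widely read genes, and 67.1% to 71.4% without 1 mouse. The similarity of null ALPs (0.310) was 0.333 at 200000 reads and 0.277 over genes read in at least 50% of kept cells. A single read at full depth did not separate cells: Mbd3 itself was read that way in 39.2% and 33.3% of null ALPs. Of 408 log2 fold changes of named genes under alternatives, 278 stayed on the same side of the threshold, and all kept their sign. The 278 include genes that were not called in the main fit and stayed uncalled, so they do not count kept calls. Genes called in the main fit lost the call in 114, and genes not called gained it in 16.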

Other observations

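Of 17 immediate early genes, 5 were read in at least 50% of null ALPs. Zfp36 was read in 79.7% and 78.6% of cells of mice 18217 and 18219, Fos in 70.9% and 73.8%, Ier2 in 73.4% and 69.0%, Jun in 58.2% and 73.8% and Junb in 70.9% and 59.5%. Their summed level was 1514 and 1591 CPM in null ALPs, and in the other 10 libraries it ran from 438 CPM in control ALPs of mouse 18218 to 3382 CPM in control LMPPs of mouse 18220.

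The machinery downstream of the IL-7 receptor was read in most cells, with 9 of 16 genes in at least 50% of them and none at 0 in every cell. Ccnd2 was read in 92.4% and 90.5%, Ccnd3 in 84.8% and 92.9%, Jak1 in 88.6% and 85.7% and Pik3r1 in 81.0% and 85.7%, whereas the feedback gene Cish was read in 31.6% and 26.2%. Of the 13 NuRD subunits, 10 were read in at least 50% of null ALPs. Rbbp4 (92.4% and 92.9%), Rbbp7 (88.6% and 90.5%), Chd4 (86.1% and 90.5%) and Mta3 (77.2% and 95.2%) led, and Mbd2, the alternative to Mbd3 in the complex, was read in 46.8% and 26.2% of cells.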
